A study of Mus musculus with 14 samples.

Results

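The genes Emx1, Emx2, Otx1, Otx2, En1, En2, Gbx1, Gbx2, Lmx1a and Lmx1b encode homeobox transcription factors that divide the embryonic brain into regions. Their H3K27me3, the trimethylation of histone H3 at lysine 27, was examined in mouse primary hippocampal neurons with and without knockdown of the long noncoding RNA NeuID. A listed ChIP-seq peak was counted for a gene when it overlapped the gene body or the 5 kb on either side of it (GENCODE annotation, mm10). By this rule 83 of the 23668 listed peaks belonged to the 10 genes, and every gene had at least 2. The forebrain genes Emx1, Emx2, Otx1 and Otx2 held 21 of these peaks, and the midbrain and hindbrain genes En1, En2, Gbx1, Gbx2, Lmx1a and Lmx1b held 62.

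Both groups were cultures of wild-type (WT) primary hippocampal neurons, which the study prepared from the embryos of CD1 mice at E17, in litters of mixed sex. Control cultures received a negative control (NC) gapmer and knockdown cultures a NeuID gapmer, both packed in lipid nanoparticles and given on DIV7 (day 7 in vitro). A gapmer is an antisense oligomer with a DNA core that directs RNase H to cut the paired RNA. The labels list 6 control and 6 knockdown libraries made with an H3K27me3 antibody, and 1 input library per group. Such cultures hold all cells that survive from the dissected hippocampus, so a mark lost in some cells and a mark weakened in all cells cannot be told apart. The level of NeuID itself was not analysed here. In the authors' table, the mean over all libraries gave the control group a weight of 0.545, which is that of 6 control and 5 knockdown libraries, whereas the labels list 6 of each. The values do not tell which of the knockdown libraries has no weight. The study describes equal group sizes, smaller than those of the labels, so what each group mean holds is not settled.

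H3K27me3 is written by Polycomb repressive complex 2, whose catalytic subunit is usually EZH2, and it lies in broad domains over developmental genes that a cell keeps silent. Emx1 and Emx2 act in the dorsal forebrain, from which the hippocampus forms, and Otx1 and Otx2 act in the forebrain and midbrain. Otx2 and Gbx2 oppose each other where the midbrain meets the hindbrain. En1 and En2 act on both sides of that border and in the cerebellum, Lmx1a in the roof plate and in precursors of midbrain dopaminergic neurons, and Lmx1b in dopaminergic and serotonergic neurons. Gbx1 acts in the hindbrain and spinal cord.

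CpG-rich DNA at the gene start is a known feature of Polycomb target genes, so the 250 bases before the annotated start are shown for 4 members. Gbx1 and Gbx2 were chosen because their summed reads gave the lowest and the highest knockdown to control ratio among the 6 genes with a peak over the start. Emx2, which had no peak there, and En1 were added after the values had been seen. Each is written 5′ to 3′ on the strand of its gene, with CpG dinucleotides (CG, which reads the same on both strands) in capitals, from the GRCm38.p6 assembly (mm10 coordinates).
Gbx1, minus strand, chr5:24527203-24527452: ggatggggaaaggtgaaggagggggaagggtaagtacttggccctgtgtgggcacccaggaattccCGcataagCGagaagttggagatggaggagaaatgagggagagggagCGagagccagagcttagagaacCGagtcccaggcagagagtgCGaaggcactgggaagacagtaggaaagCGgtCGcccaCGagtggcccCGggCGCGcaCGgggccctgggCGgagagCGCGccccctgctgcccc
Gbx2, minus strand, chr1:89931180-89931429: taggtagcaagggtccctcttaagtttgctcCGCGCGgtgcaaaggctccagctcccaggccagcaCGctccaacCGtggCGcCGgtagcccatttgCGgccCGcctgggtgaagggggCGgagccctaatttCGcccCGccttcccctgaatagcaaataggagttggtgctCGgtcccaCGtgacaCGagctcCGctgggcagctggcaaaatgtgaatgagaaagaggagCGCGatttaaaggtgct
En1, plus strand, chr1:120602168-120602417: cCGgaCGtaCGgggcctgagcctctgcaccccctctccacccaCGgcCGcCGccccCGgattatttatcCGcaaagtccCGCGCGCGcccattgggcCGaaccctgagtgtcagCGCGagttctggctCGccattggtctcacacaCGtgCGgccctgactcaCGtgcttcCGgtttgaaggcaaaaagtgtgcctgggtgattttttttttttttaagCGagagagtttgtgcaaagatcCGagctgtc
Emx2, plus strand, chr19:59458122-59458371: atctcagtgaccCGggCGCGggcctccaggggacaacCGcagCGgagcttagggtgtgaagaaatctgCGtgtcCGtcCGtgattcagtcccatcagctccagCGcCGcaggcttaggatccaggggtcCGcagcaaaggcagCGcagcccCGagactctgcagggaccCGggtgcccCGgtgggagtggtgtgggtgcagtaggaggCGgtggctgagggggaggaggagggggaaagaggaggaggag
The window before the start held 15 CpGs in Gbx1, 18 in Gbx2, 22 in En1 and 16 in Emx2, against a median of 8 over 21938 protein-coding gene starts. Of all those starts, 31.9% had as many CpGs as Gbx1 or more, 24.5% as many as Gbx2, 16.0% as many as En1 and 29.4% as many as Emx2. Emx2, without a listed peak over its start, thus lay between Gbx1 and Gbx2 in CpG number. Among the other members the count was 8 in Emx1, 9 in Otx2, 17 in Otx1, 24 in Lmx1a and 25 in En2. Otx2, with 9, had all 250 bases under a peak, while En2, with 25, had none. Lmx1b had the most, 39, a number that 1.6% of all starts reached, and all 250 bases under a peak. Its RefSeq start lies 587 bp further upstream, so that its window falls inside that transcript. The RefSeq starts of Emx1, Emx2 and Lmx1a lie 493, 318 and 321 bp further downstream than the annotated starts used here, so that their windows precede both starts.

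To determine how the mark differed between the groups, the authors' log2 means of normalized reads were compared at each of the 83 peaks. Over the 10 genes together, the knockdown means were somewhat lower than the control means. Summed normalized reads came to 2632 in the control and 2312 in the knockdown, or 87.8% of the control, while over all listed peaks the knockdown had 97.1% of the control. The knockdown mean lay below the control mean in 50 member peaks and above it in 33. The lower share was 60.2% (95% Wilson interval 49.5 to 70.1%, which covers counting error only), against 50.8% of all peaks. Under the nearest gene start rule, which takes the starts of all annotated genes, noncoding ones included, it was 50% of 84 peaks. The median difference, knockdown minus control on the log2 scale, was -0.19 (quartiles -0.80 and 0.38) against -0.02 (quartiles -0.80 and 0.77) over all peaks. Most listed peaks are narrower and weaker than those of the members, so peaks of like width are the closer comparison. Of all peaks of at least 1 kb, 56.9% were lower, with a median of -0.09 and 93.5% of the control reads. Of the 31 member peaks of that width, 61.3% were lower (Wilson interval 43.8 to 76.3%), with a median of -0.13 and 88.4% of the control reads. Of all peaks with an overall mean of 5 or more, 59.3% were lower, and of the 22 such member peaks 63.6%.

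A peak was counted as past the limit when its group means differed by more than 1 on the log2 scale, that is 2-fold. By this limit 16 of the 83 peaks were lower in the knockdown, next to 20.6% of all peaks, and 10 were higher, next to 20.4% of all peaks. Against all peaks, the members' share past the limit was thus similar for lower peaks and smaller for higher peaks. Most listed peaks are weaker than those of the members, so the shares for peaks of like strength, given below, are the closer comparison. Under the nearest gene start rule 14 were lower and 14 higher. Only 1 mean per group was listed for each peak, so no value here has an SD, an n or a test between libraries, and every difference is a description of these group means. Peaks of a gene share a locus and are not replicates.

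**Figure D1:**
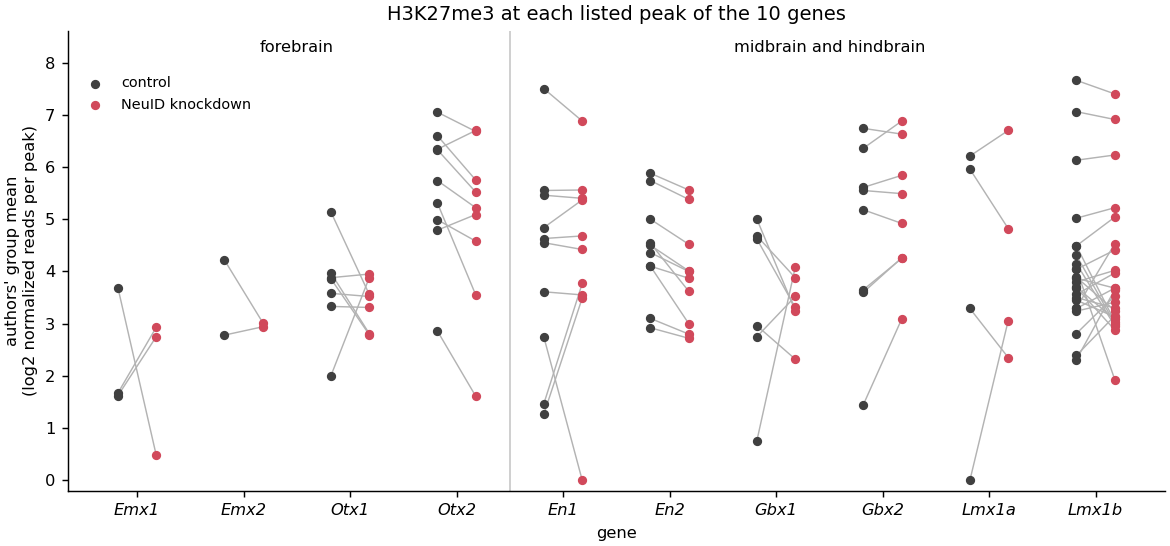
Authors' group means of H3K27me3 (log2 normalized reads per peak, y axis) at each listed peak of the 10 genes (x axis), with control in grey, NeuID knockdown in red and a line joining both means of a peak. All 10 peaks of En2 have differences from -1.09 to -0.19, whereas Lmx1b has 12 peaks sloping each way.

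The forebrain genes carried unequal amounts of the mark. Emx1, which acts in precursors of dorsal forebrain excitatory neurons, had 3 narrow peaks that covered 3.46% of its 27025 bp window. The peak in its untranslated region (UTR), chr6:85187721-85187918, had a control mean of 1.62 and a knockdown mean of 2.75. The coding exon peak, chr6:85188265-85188524, had 1.67 and 2.93. The intron peak, chr6:85189890-85190367, the widest of the gene at 478 bp, had 3.69 in the control and 0.48 in the knockdown. The knockdown was therefore higher by 1.13 and 1.26 in the first pair, and the intron difference of -3.21 was the most negative of the 83 peaks. All 3 were weak peaks, with overall means below 3. Summed over the gene, reads came to 19.1 in the control and 15.7 in the knockdown, a log2 ratio of -0.28.

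Emx2, which is needed for growth of the hippocampus, had 2 peaks, both outside the gene body. The upstream peak, chr19:59453199-59453598, which also overlaps the antisense gene Emx2os, had a control mean of 2.78 and a knockdown mean of 2.94. The downstream peak, chr19:59469496-59470254, had 4.22 and 3.02, a difference of -1.20. The nearer of the 2 ended 4774 bp before the gene start. The summed reads of 25.5 in the control and 15.8 in the knockdown gave the lowest ratio of the 10 genes, -0.69, but this ratio rests on those 2 peaks.

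Otx1, a factor of the forebrain and of deep cortical layers, had 7 peaks over 25.4% of its window, and the knockdown was lower over the middle of the gene. The widest peak, chr11:21997797-21999268, 1472 bp over a coding exon, had a control mean of 5.14 and a knockdown mean of 3.56. The next peaks toward the 3′ end had 3.86 and 2.79, then 3.97 and 2.81. These 3 adjacent peaks had differences of -1.57, -1.07 and -1.16. At the 3′ end of the gene and beyond it, by contrast, 3 peaks had differences of 0.07, -0.07 and -0.02. The peak nearest the start, chr11:22001867-22002281, 616 bp inside the gene, went the other way, with a control mean of 2.00 and a knockdown mean of 3.88. The summed reads were 106 and 77.3, a ratio of -0.46.

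Otx2, which specifies the anterior brain and later the choroid plexus, carried by far the most of the forebrain genes. Its 9 peaks covered 65.0% of the 26143 bp window, 7 of them were at least 1 kb wide, and its 32.4 control reads per kb of peak were the highest density of the 10 genes. Only 1.04% of the 6154 protein-coding genes with a listed peak had more bases under peaks. The start peak, chr14:48672761-48675241, had a control mean of 6.60 and a knockdown mean of 5.75. The widest peak, chr14:48663639-48667182, 3544 bp over a UTR, had 7.05 and 6.68. The largest difference was at chr14:48659879-48661713 over a coding exon, with 5.31 in the control and 3.55 in the knockdown. In all, 7 of the 9 peaks were lower in the knockdown and 2 were higher, by 0.31 and 0.35. The summed reads were 551 and 416, so that the knockdown had 75.6% of the control (ratio -0.40). The start peak and the 3010 bp peak next to it also overlap the antisense gene Otx2os1, and the start peak also Gm49154, so their reads cannot be assigned to a single gene.

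Among the midbrain and hindbrain genes, the engrailed pair differed from each other. En1, needed for the midbrain and cerebellum, had 10 peaks that covered 86.8% of its window, the highest share of the 10 genes. Its widest peak, chr1:120596666-120601761, 5096 bp long and upstream of the gene, held 48.5% of its control reads and had a control mean of 7.50 and a knockdown mean of 6.88. The peak at the start, chr1:120602032-120602428, had 3.61 and 3.55. It ended just inside the GENCODE gene and did not reach the RefSeq start 69 bp further on. Over the gene body, the 3 peaks of at least 1 kb had differences of 0.05, 0.01 and -0.13. The largest difference was at chr1:120607853-120608125 in the 3′ UTR, with a control mean of 2.74 and a knockdown mean listed at 0, so no fold is given. The En1 ratio was -0.16, from 372 and 333 summed reads, and within the gene body alone it was 0.02.

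En2, which acts with En1 in the cerebellum, was lower in the knockdown at each of its 10 peaks. The widest peak, chr5:28167602-28169715, 2114 bp in the intron, had a control mean of 5.88 and a knockdown mean of 5.56. The largest difference was downstream, at chr5:28174073-28174598, with 4.10 and 3.00. It was the only En2 peak past the limit of 1, and the others had differences from -0.19 to -0.92. No peak covered the start, and the nearest began 550 bp inside the gene, over a coding exon, with 4.54 and 3.62. The summed reads were 261 and 193, or 73.8% of the control (ratio -0.44). En2 was the only member with all of its peaks on the same side.

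The gastrulation brain homeobox genes Gbx1 and Gbx2 lay at opposite ends of the midbrain and hindbrain group. Gbx1 had 6 peaks within 4 kb of the start, all narrower than 1 kb, over 10.1% of its window. The start peak, chr5:24526673-24527661, was its widest at 989 bp and had a control mean of 4.68 and a knockdown mean of 3.88. This peak covers all 250 bases of the Gbx1 sequence shown above. The next peaks inside the gene had 5.00 and 3.25, then 4.62 and 3.31, while the upstream peak, chr5:24527754-24528142, had 0.76 in the control and 4.08 in the knockdown. That difference of 3.32 was the largest of the 83 peaks. It lay only 92 bp from the start peak, whose difference was -0.81. The summed reads were 98.5 and 67.5 (ratio -0.54).

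Gbx2, which sets the hindbrain side of the midbrain border, was the only member with more summed reads in the knockdown, 396 against 349 in the control (114%, ratio 0.18). The start peak, chr1:89929960-89933044, 3085 bp, had a control mean of 6.36 and a knockdown mean of 6.88. The whole Gbx2 sequence shown above lies under it. The peak also overlaps the noncoding gene D130058E05Rik. The widest peak, chr1:89919468-89923959, 4492 bp long and downstream, had 6.74 and 6.63. The largest difference was also downstream, at chr1:89924414-89924714, a weak peak with 1.45 and 3.09. Of its 8 peaks, 5 were higher in the knockdown and 3 were lower, none of the latter by more than 0.26. The peaks covered 76.1% of the window.

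**Figure D2:**
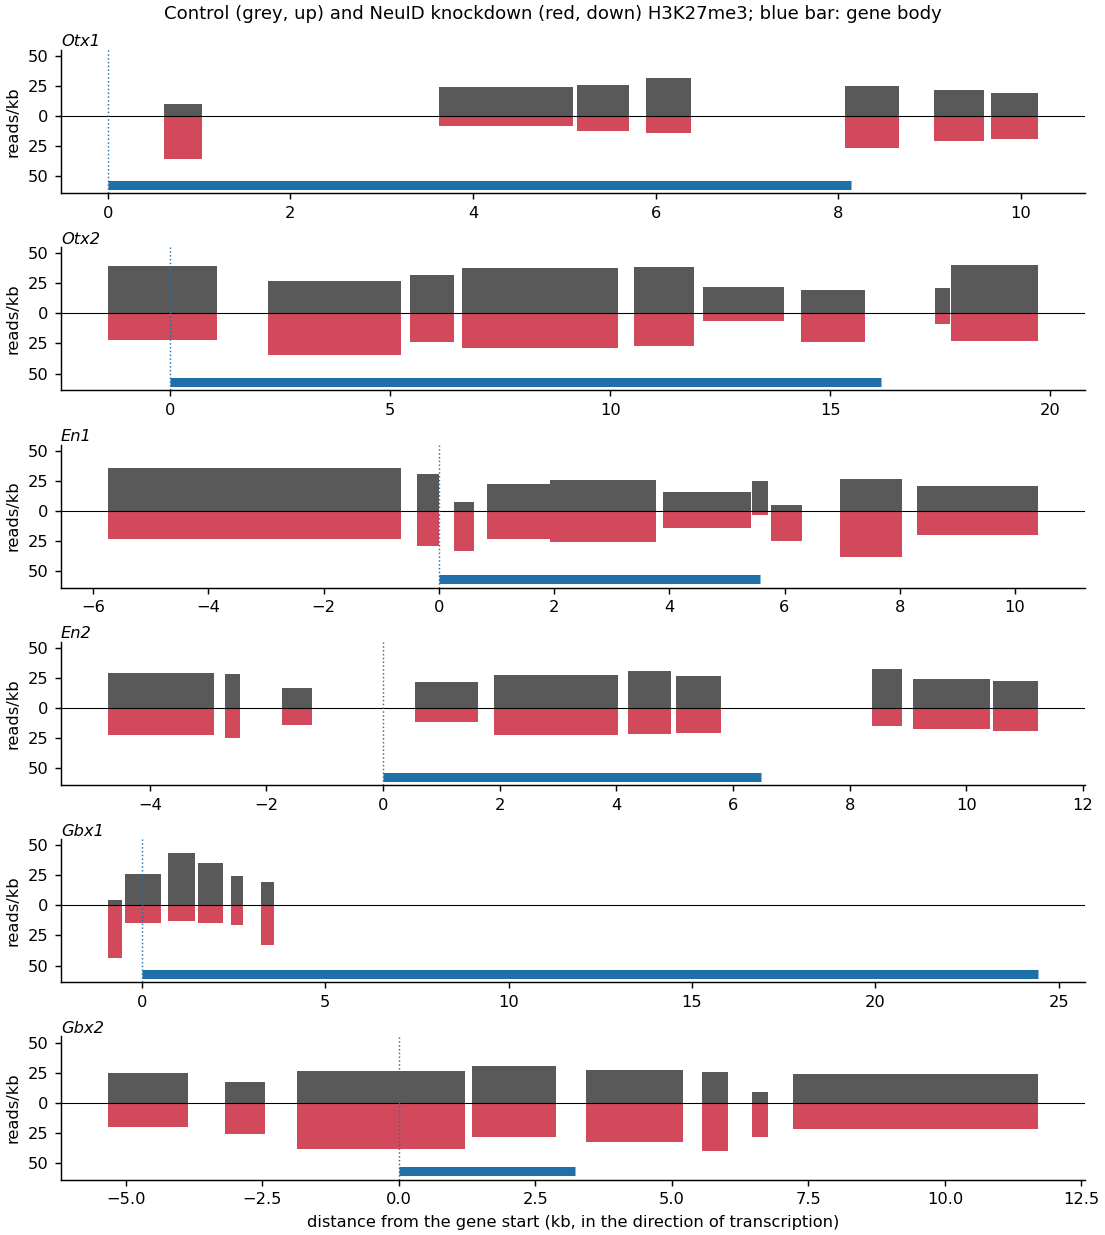
H3K27me3 density of each listed peak (normalized reads per kb, y axis) in control (grey, upward) and NeuID knockdown (red, downward) against distance from the gene start (x axis, kb) for Otx1, Otx2, En1, En2, Gbx1 and Gbx2, with the gene body as a blue bar. The red bars are shorter than the grey at every En2 peak and over the middle of Otx1, and longer at the start peak of Gbx2 (38.1 against 26.7 reads per kb).

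The LIM homeobox genes Lmx1a and Lmx1b had summed ratios close to 0. Lmx1a had 4 peaks in its long window, of which they covered 3.83%. The start peak, chr1:167688130-167691546, was its widest at 3417 bp and had a control mean of 6.21 and a knockdown mean of 6.70. The adjacent peak, chr1:167691719-167694042, had 5.96 and 4.82. These neighbours, 172 bp apart, thus went in opposite directions, by 0.49 and -1.14, and the summed reads of 147 and 146 were nearly equal. The largest difference was at the intron peak chr1:167715818-167716167, listed at 0 in the control and with a mean of 3.06 in the knockdown.

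Lmx1b had the most peaks of the 10 genes, 24, and ranked 17 of 6154 protein-coding genes by bases under peaks. The start peak, chr2:33639349-33645285, was also the widest of the 83 peaks at 5937 bp and had a control mean of 7.66 and a knockdown mean of 7.40. It also overlaps the noncoding gene C130021I20Rik. The second widest, chr2:33634154-33639085, had 7.06 and 6.91. The largest difference was at a 613 bp intron peak, chr2:33602469-33603081, with 4.05 and 1.93. Of the 24 peaks, 12 were lower and 12 higher. The 4 strongest peaks, with overall means from 5.11 to 7.55 and all within 10 kb of the start, had differences between -0.26 and 0.20. The weaker peaks, most of them in introns, ranged from -2.12 to 1.34. The summed reads were 704 and 652 (ratio -0.11). Without Lmx1b, an alternative chosen after seeing the data, the other 59 peaks had 12 lower and 8 higher past the limit. The shares over all peaks were 20.6% lower and 20.4% higher.

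The comparison of forebrain with midbrain and hindbrain genes asked whether regional identity went with the size of the difference. The forebrain peaks had a median difference of -0.41 (quartiles -1.16 and 0.16), and 14 of 21 were lower in the knockdown (66.7%, Wilson interval 45.4 to 82.8%). The midbrain and hindbrain peaks had a median of -0.14 (quartiles -0.62 and 0.47), and 36 of 62 were lower (58.1%, interval 45.7 to 69.5%). Past the limit there were 7 lower and 3 higher forebrain peaks, and 9 lower and 7 higher midbrain and hindbrain peaks. Over all peaks, 20.6% were lower and 20.4% higher past it. Control reads of the forebrain genes summed to 701 and knockdown reads to 525, 74.8% of the control. Those of the midbrain and hindbrain genes were 1931 and 1787, or 92.5%. The intervals of the shares and the quartile ranges overlap, and no test of the difference was possible. The forebrain median also depended on the assignment rule: with each peak given to its nearest gene start it was 0.07, over 15 peaks. That rule drops the 9 Otx2 peaks and 1 Emx2 peak and adds 3 peaks of Emx1 and 1 of Otx1. Starts of noncoding genes compete under it. Even the peak over the Otx2 start, which also overlaps Otx2os1 and Gm49154, is dropped, so a lost peak need not lie away from its gene. With the window rule and only Otx2 left out, an alternative chosen after seeing the data, the forebrain median was -0.04.

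The forebrain median was lowest in the wide peaks. The 8 forebrain peaks of at least 1 kb, 7 of Otx2 and 1 of Otx1, had a median of -0.66 and 73.3% of the control reads. The 23 such peaks of the midbrain and hindbrain genes had a median of -0.07 and 94.1%. In narrower peaks the order depended on the measure. The median was -0.07 over 13 forebrain peaks and -0.19 over 39 midbrain and hindbrain peaks, while the summed reads were 80.2% of the control in the former and 87.9% in the latter. Since 7 of the 8 wide forebrain peaks belong to Otx2, the gene and the region cannot be told apart in this contrast.

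By gene, the summed ratio was below 0 for all 4 forebrain genes, from -0.69 to -0.28, and for 5 of 6 midbrain and hindbrain genes, from -0.54 to 0.18. In descending order the ratios were 0.18 in Gbx2, -0.01 in Lmx1a, -0.11 in Lmx1b, -0.16 in En1, -0.28 in Emx1, -0.40 in Otx2, -0.44 in En2, -0.46 in Otx1, -0.54 in Gbx1 and -0.69 in Emx2. Whether neighbours in this order differ cannot be judged, since each ratio rests on group means without a spread. Among all 6154 protein-coding genes with a listed peak the ratio was below 0 in 49.2%. Among the 808 genes with at least 128 summed reads over both groups it was below 0 in 61.1%, with a median of -0.08 and a central 95% from -0.69 to 0.57. All members but Emx1 and Emx2 reached that sum, and 7 of those 8 were below 0. Each of the 8 lay inside the central 95%.

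**Figure D3:**
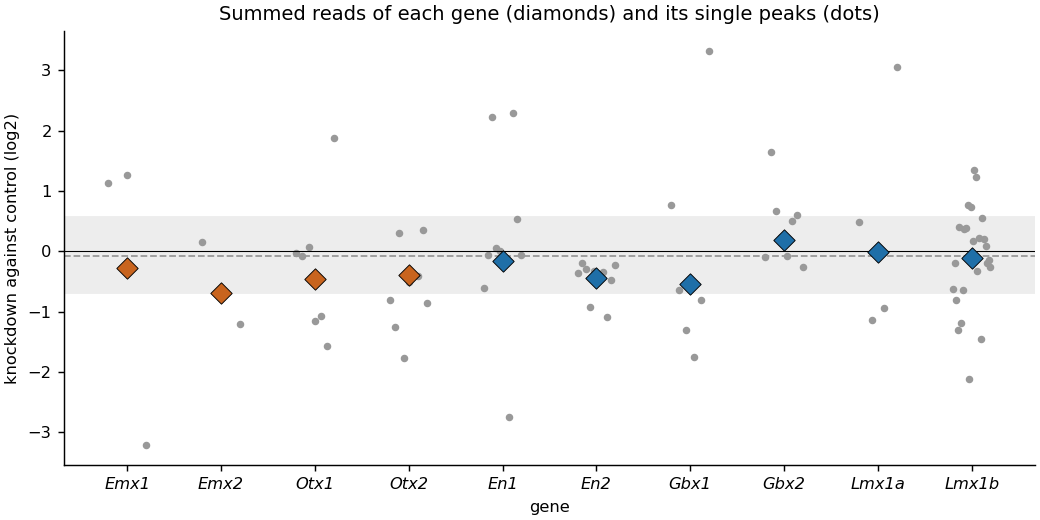
Knockdown against control (log2, y axis) for the summed reads of each gene (diamonds, forebrain in orange, midbrain and hindbrain in blue) and for its single peaks (grey dots), with the median (dashed) and central 95% (grey band, -0.69 to 0.57) of 808 protein-coding genes with at least 128 summed reads. The diamonds span -0.69 to 0.18, while single peaks span -3.21 to 3.32.

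Weak peaks differed more between the group means than strong ones, among the members as over all peaks. Of the 15 member peaks with an overall mean below 3, 3 were lower and 6 higher past the limit, next to 23.4% and 26.9% of all peaks of that strength. Of the 30 with a mean from 3 to 4, 8 were lower and 4 higher, next to 21.1% and 16.2%. Of the 16 from 4 to 5, 4 were lower and none was higher, next to 13.3% and 7.62%. Those 4 were 1 peak each of Otx1 and Otx2 and 2 of Gbx1. Of the 22 peaks at 5 and above, 1 was lower and none higher, next to 3.01% and 1.25%, and that peak was the second peak of Lmx1a. By width, 3 of the 31 member peaks of at least 1 kb were lower and 1 was higher past the limit, next to 7.91% and 5.08% of all such peaks. Only 2 member peaks lay outside the central 95% of all peaks of their strength. They were the upstream peak of Gbx1, at 3.32 against an upper bound of 2.48, and the second peak of Lmx1a, at -1.14 against a lower bound of -1.03.

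**Figure D4:**
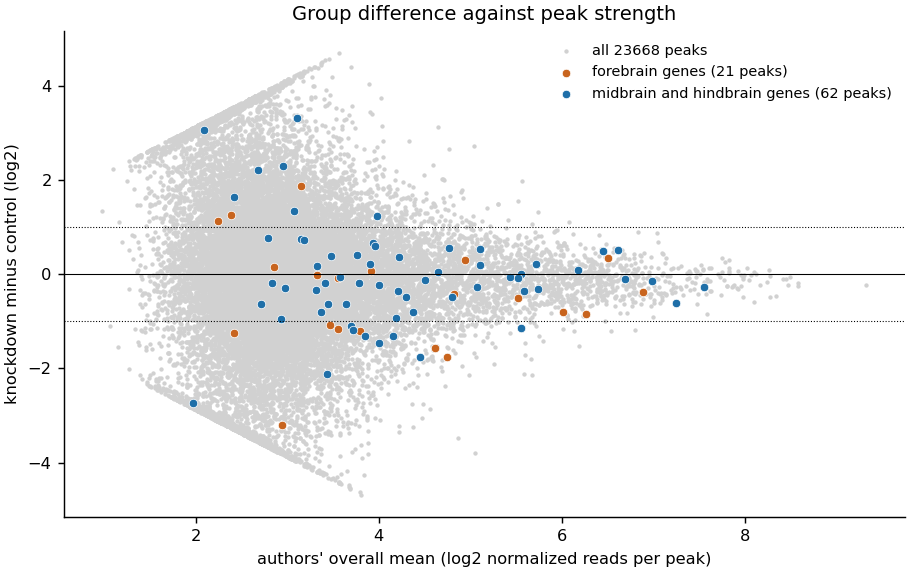
Difference of the group means (knockdown minus control, log2, y axis) against the authors' overall mean (log2 normalized reads per peak, x axis) for all 23668 peaks (grey), forebrain peaks (orange) and midbrain and hindbrain peaks (blue), with dotted lines at the limit of 1. Of the 22 member peaks at an overall mean of 5 or more, 21 lie between the dotted lines.

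As a set, the member peaks differed from all peaks in features that the selection did not use. They were wide, with a median of 733 bp against 426 bp over all peaks, and 37.3% reached 1 kb against 9.72%. Emx1, Emx2 and Gbx1, however, had no peak of at least 1 kb. The control density of the member peaks was 26.4 reads per kb against 21.3 over all peaks, and the knockdown density 23.2 against 20.7. Their median GC content was 53.0% against 49.2%, and they held a median of 2.32 CpGs per 100 bp against 1.23. At like width these gaps did not hold. Member peaks of at least 1 kb had medians of 52.5% GC and 3.11 CpGs per 100 bp, below the 54.3% and 3.48 of all such peaks. Their control density was 27.8 reads per kb against 26.9, and their knockdown density 24.6 against 25.1. Peaks of the 4 lists of other patterning genes, described below, had median widths from 659 to 1023 bp. The medians of these lists were 48.9 to 53.0% GC and 1.73 to 2.41 CpGs per 100 bp, so such values are not particular to the members. GC content and CpG number are given beside the differences, and their part in them was not tested.

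By place, the mark lay over the gene start in 6 of the 10 genes, Otx2, En1, Gbx1, Gbx2, Lmx1a and Lmx1b, that is 1 of 4 forebrain and 5 of 6 midbrain and hindbrain genes. A peak covered the start in 1139 of the 6154 protein-coding genes with a listed peak. Among the 808 with at least 128 summed reads it did so in 486, and among the 8 members with that sum in 6. The 6 start peaks were lower in 4 genes and higher in Gbx2 and Lmx1a, with differences from -0.85 in Otx2 to 0.51 in Gbx2. None passed the limit. Their summed reads were 494 and 470, 95.1% of the control. The 22 peaks over other exons had a median of -0.39 and 74.9% of the control, and the 32 intron peaks a median of -0.07 and 96.3%, with 16 on either side. Most of the intron peaks belong to Lmx1b. The exon peaks were also stronger and wider, with a median overall mean of 4.47 and a median width of 1037 bp. Those of the intron peaks were 3.56 and 624 bp. Place, gene and strength cannot be told apart here, and no values by place over all peaks were computed. The 8 upstream peaks had a median of -0.23, and the 15 downstream peaks one of -0.07. Adjacent peaks of the same gene less than 1 kb apart went in the same direction in 32 of 51 pairs (62.7%), against 2325 of 4380 (53.1%) over all peaks. Every such pair of En2 is among the 32, because all 10 of its peaks were lower, and the excess was not tested.

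Other genes that pattern the same regions were counted from 4 lists by the same window. Of 14 forebrain genes, 10 had a peak, and their 50 peaks had a median difference of -0.19, with 10 lower and 3 higher past the limit. The genes of this list with the most covered bases were Six3, an eye and forebrain factor with a summed ratio of 0.04, and the LIM homeobox gene Lhx5, with -0.06. All 8 genes of the midbrain-hindbrain boundary had peaks, 87 in number, with a median of -0.11 and 17 lower and 11 higher. The paired box genes Pax2 and Pax5 had ratios of -0.09 and -0.26. These lists, like the 10 homeobox genes, had medians slightly below the -0.02 of all peaks.

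All 12 genes of midbrain dopaminergic, serotonergic and roof plate development had peaks, 81 in number, with a median of -0.20 and 12 lower and 7 higher past the limit. The zinc finger genes Gata3 and Gata2 had ratios of -0.32 and -0.25. All 8 genes of hindbrain segments had peaks, 57 in number, with a median of -0.24 and 9 lower and 3 higher. Hoxa3 and Hoxb2 had ratios of 0.03 and -0.27. None of these peaks is a peak of the 10 genes. In each list the share past the limit was below that of all peaks, in both directions. The peaks of the lists were wider, with medians from 659 to 1023 bp against 426 bp, and no comparison at like strength was made.

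Marker genes were used to check the labelled cell type. Because the mark accompanies silent genes, starts of genes active in neurons should carry few peaks. A peak covered the start of 1 of 8 neuronal genes (Neurod2), 0 of 5 genes of hippocampal and cortical excitatory neurons, 0 of 4 astrocyte genes, 2 of 5 oligodendrocyte lineage genes (Olig1 and Olig2) and 0 of 4 microglia genes. Over all protein-coding genes, a peak covered the start of 1139 of 21951, so a low count is common in any short list. An absent peak does not show that a gene is active. The counts therefore do not tell neurons from astrocytes or microglia, and they place the cells only loosely. Library totals were not analysed here.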

How the data were processed

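H3K27me3 was measured by ChIP-seq in primary hippocampal neurons. The authors aligned single-end reads with bowtie2 (mm10). The authors ran MACS2 in its broad mode and then DiffBind with DESeq2 inside it. For each peak the authors deposited the log2 mean of normalized reads over all libraries, over control libraries and over knockdown libraries. Normalization, input subtraction, merging of peaks and handling of duplicate reads are not given in the sources used here. Input subtraction, if used, would act most on weak peaks. A group mean at or below 1 read is listed at 0. The fold, p-value and FDR columns of the same table hold the authors' own comparison and were not used.

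The group difference was computed as knockdown minus control, and reads were summed per gene as powers of 2 of the means. Peaks were assigned to genes by overlap of any base with the gene body and 5 kb on each side (GENCODE M21). Of all peaks, 23642 lay on the 21 chromosomes and inside the GRCm38 assembly, and 26 lay on other scaffolds. Sequences came from GRCm38.p6. With a single mean per group no test, SD or fit was possible. A difference beyond 1 was read beside the share of all peaks past it. Total counts per library, which set the precision of each mean, were not analysed here. The labels do not say whether the libraries came from separate cultures.

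All 10 members are named, with the start peak, the widest peak and the peak with the largest difference of each. From each list of other patterning genes, the 2 with the most covered bases are named. The members and lists were chosen with earlier results of these data known. Alternatives were other windows and assignment rules, filters on width, strength and groups at 0, 8 added reads, centring, other limits, and leaving out Lmx1b or Otx2. Scripts were tested on simulated data. Versions were pysam 0.24.0, matplotlib 3.10.9, pandas 2.3.3, numpy 2.4.6, SciPy 1.17.1 and Python 3.11.15.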

Additional observations from a re-analysis of the deposited data

How the results depend on the processing

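Of 65 recalculations of the counts, shares and medians, 57 stayed within 1.5 times a count or within the interval of a share or median, and 1 turned its direction. This tally is a weak check. Adding 8 reads to both means cannot change which is lower, so the share had to stay at 60.2%. The intervals are also wide: a forebrain median of -0.04 without Otx2 counted as unchanged from -0.41. Giving each peak to its nearest gene start, with starts of noncoding genes included, changed much of the peak set. Of the 62 midbrain and hindbrain peaks it kept 32, and it added 37, of which 18 were at Gbx2. Lmx1b went from 24 peaks to 5. Under this rule the median difference of the forebrain genes was 0.07 and that of the midbrain and hindbrain genes -0.06. The share of lower member peaks was 50%, no longer above the 50.8% of all peaks. Lower and higher peaks past the limit were then equal, 14 each. The peaks lower past the limit numbered 5 with 8 reads added to both means, 26 at a limit of 0.58 and 3 at a limit of 2. The peaks higher past the limit numbered 4 with an overall mean of at least 3, 3 with a width of at least 500 bp, 2 with 8 reads added and 4 at a limit of 2. Of 39 recalculated gene ratios, 3 turned direction: En1 to 0.02 in the gene body alone, and, with the widest peak alone, Gbx2 to -0.10 and Lmx1a to 0.49. Emx2 had no peak in the gene body alone and gave no value there. Leaving out Lmx1b or Otx2, chosen after seeing the data, changed no direction, though the forebrain median without Otx2 was -0.04. No paired analysis was possible because only group means are listed, and for the same reason no replicate could be left out. Weak peaks, with a mean of few reads, limit every count past the limit.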
